A study of Mus musculus with 24 samples.

Results

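Fos, Fosb, Jun, Junb, Egr1, Atf3, Ier2, Ier3, Nr4a1 and Dusp1 are immediate early response genes, and their RNA was followed here on 24 one-colour microarrays of mouse right ventricle. The 10 genes were listed by name for their known class, and each was represented by every non-control probe that carried its symbol, which was 1 probe per gene. Of the 10 genes, 9 were among the 12429 genes that passed the filter on dim probes and were tested. Fosb did not pass it, and Junb passed it only through the samples taken at 2 months, so its level elsewhere is partly at the limit of detection.

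Immediate early genes are switched on within minutes of a stimulus, without new protein being made first. Growth factors, stretch, calcium and hormones reach them through MAP kinases, serum response factor and the cyclic AMP response element binding protein, and their products in turn control a later wave of genes. In the heart they are known to respond fast and briefly to a rise in load or to catecholamines, so that their RNA at one time point reads the recent state of the tissue.

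The study compared right ventricles of sham-operated mice (10 samples) with right ventricles of mice after PSPI, an operation that loads this chamber with both pressure and volume, at 1 month (5 samples), 2 months (5 samples) and 3 months (4 samples). The strain field of every sample reads M/FVB/10-12, whose last part is not explained there and may not be strain. The tissue is given as heart and its compartment as right ventricle. No allele or drug is named for any group, and the shams carry no month, so each PSPI month was compared with the same 10 shams. Whether each sample is a separate mouse is not in the labels, and the spread behind every p-value may therefore be partly technical.

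Levels are log2 of the processed signal minus the 75th percentile of that array, so 0 is the level of a fairly bright probe, and levels are compared within a gene only. Between 36.1% and 56.1% of probes were well above background per array, and the number of arrays limits the precision. The arrays lay on 3 slides, of which slide 1 held 7 shams and 1 PSPI sample, slide 2 held PSPI samples only, and slide 3 held all 4 groups. Over the 500 most variable genes, 8 pairs of arrays within a group, 6 of them on different slides, were closer than any other pair of arrays (a median absolute difference of at most 0.260, against at least 0.315), and averaging such arrays left 17 samples. Shams 3, 4 and 10, which are close to each other, had atrial Myl7 at 3.48 to 3.53, and Shams 6 to 9 had the beta myosin heavy chain gene Myh7 at 4.73 to 5.91, against 1.62 to 2.16 in the other 6 shams. Myh7 in the PSPI samples at 2 and 3 months ran from 4.67 to 5.63. Of the lung epithelium markers, 0 of 4 passed the filter on dim probes, while 8 of 8 ventricular cardiomyocyte markers did. In whole tissue, fewer cells of a type and less RNA per cell cannot be told apart.

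The sequences just before the transcription start are shown first for Fos and Dusp1, the only genes of the 10 that passed a test against sham, for Nr4a1, which varied most among the shams, and for Jun, which varied least over the arrays. They are the 250 bases before the start, 5′ to 3′ on the gene's strand, from RefSeq on GRCm38.p6, and 8 of the 10 genes had an entry that could be used (not Egr1 and Ier2). Capitals mark TGACG or its reverse complement CGTCA, the half-site that cyclic AMP response element binding proteins and AP-1 and ATF dimers recognise. Fos lies at chr12:85473640-85473889 on the plus strand, Nr4a1 at chr15:101266596-101266845 on the plus strand, Dusp1 at chr17:26508473-26508722 on the minus strand and Jun at chr4:95052223-95052472 on the minus strand.
Fos: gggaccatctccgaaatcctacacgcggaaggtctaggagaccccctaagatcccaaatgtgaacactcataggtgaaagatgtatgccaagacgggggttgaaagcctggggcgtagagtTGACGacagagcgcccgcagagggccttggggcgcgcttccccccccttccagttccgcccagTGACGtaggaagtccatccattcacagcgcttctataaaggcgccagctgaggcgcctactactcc
Nr4a1: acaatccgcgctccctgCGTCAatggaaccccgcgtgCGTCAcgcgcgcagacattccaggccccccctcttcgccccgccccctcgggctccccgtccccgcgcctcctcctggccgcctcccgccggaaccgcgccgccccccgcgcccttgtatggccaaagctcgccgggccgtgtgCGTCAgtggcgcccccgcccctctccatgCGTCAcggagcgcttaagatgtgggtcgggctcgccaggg
Dusp1: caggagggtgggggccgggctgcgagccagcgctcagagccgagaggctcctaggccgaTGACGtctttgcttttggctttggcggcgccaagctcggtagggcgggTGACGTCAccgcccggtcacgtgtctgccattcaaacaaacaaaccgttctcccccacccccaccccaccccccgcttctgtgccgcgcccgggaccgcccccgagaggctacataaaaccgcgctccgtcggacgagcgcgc
Jun: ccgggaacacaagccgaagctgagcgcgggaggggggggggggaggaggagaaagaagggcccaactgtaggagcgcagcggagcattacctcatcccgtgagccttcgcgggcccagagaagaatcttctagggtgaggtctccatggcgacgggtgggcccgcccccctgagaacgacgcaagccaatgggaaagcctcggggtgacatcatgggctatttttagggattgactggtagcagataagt

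Half-sites were present in 6 of the 8 windows (Fos, Fosb, Junb, Atf3, Nr4a1 and Dusp1), and 17.8% of all 32851 promoter windows of this length held at least 1. Nr4a1 held 4, Dusp1 held 3, Fos held 2, and Fosb, Junb and Atf3 held 1 each. The half-sites of Fos start 129 and 66 bases before the transcription start, and those of Nr4a1 start 233, 213, 69 and 40 bases before it. Dusp1 alone held the full palindrome TGACGTCA, in which both strands carry a half-site, and 1.55% of all windows held it. The AP-1 site TGACTCA, searched on both strands, was in none of the 8 windows and in 4.46% of all, and the exact CArG box to which serum response factor binds was also in none, against 1.47% of all. The TATA box TATAAA, searched on the gene's strand, was in the Fos window and in 7.59% of all windows. These are matches of letters in a short window and show no binding. Sites outside the window were not searched, so a motif found in none of the windows may still lie near these genes.

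The genes spread widely between samples of the same group. Of the genes well above background on all 24 arrays, Egr1 ranged over 33.1-fold, Nr4a1 over 19.5-fold and Atf3 over 8.49-fold. Dusp1, Ier3 and Jun were steadier, with ranges of 2.95-fold, 2.91-fold and 2.75-fold. The signal of Fos ranged over 5.17 log2 units, that of Fosb over 4.42, Junb over 2.67 and Ier2 over 2.59, but these probes were well above background on only 21, 15, 16 and 22 arrays, so the lower ends are not measured levels and no fold is given. Among the 10 shams, the SD of Nr4a1 was 1.77 log2 units, larger than that of 99.7% of the tested genes, those of Egr1 (1.34) and Fos (1.14) were larger than in 99.3% and 98.9%, and the median gene had an SD of 0.219. The SD of Jun in the shams was 0.182, larger than in 36.9% of genes.

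**Figure D1:**
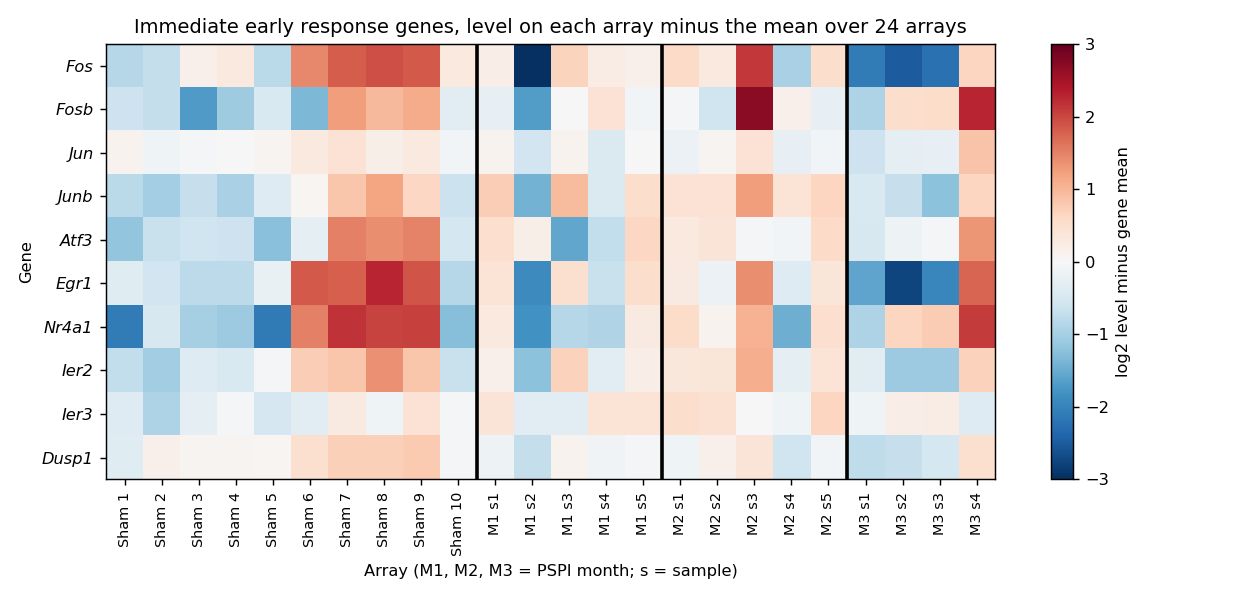
Level of each of the 10 genes (rows) on each of the 24 arrays (columns, grouped by sham and month), as the log2 difference from that gene's mean over all arrays; colours stop at 3 units either way. Most rows are red in Shams 6 to 9, PSPI month 2 sample 3 and PSPI month 3 sample 4, and blue in PSPI month 1 sample 2.

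Fos encodes the leucine zipper protein that pairs with Jun proteins to form AP-1. In the shams its level had a lowest value of -4.24, a median of -3.10 and a highest value of -1.46. At 1 month the samples were at -3.19, -6.43, -2.72, -3.16 and -3.24, and at 2 months at -2.81, -3.10, -1.26, -4.37 and -2.87. At 3 months they were at -5.48, -5.88, -5.64 and -2.74. Thus 3 of the 4 samples at 3 months lay below every sham and the fourth lay above the sham median. Samples 2 and 3 of that group are close arrays, and averaging them leaves 3 samples at 3 months. The 2-month samples covered much the same span as the shams. The Fos probe, read from 10 spots per array (chromosome 12, 86817900 to 86817959 in mm9), was well above background on 21 of 24 arrays but on only 2 of the 4 at 3 months.

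Fos fell at 3 months against sham, by 2.08 ± 0.71 log2 units (SE, n = 4 and 10; limma, adjusted p = 0.0238). No fold is given, since only 2 of the 4 arrays at 3 months measured the gene above background, and the size depends on the background treatment. Its difference was -0.90 ± 0.65 at 1 month (adjusted p = 0.623) and -0.03 ± 0.65 at 2 months (adjusted p = 0.981). Over all months, taken as the mean of the 3 month means minus sham, the difference was also negative. Its 95% interval ran from -2.03 to 0.02 (adjusted p = 0.140). None of the 3 passed the threshold of 0.05. The difference between 3 and 2 months was -2.05 ± 0.80 (adjusted p = 0.0766). On slide 3 alone, which held 3 shams and 3 of the samples taken at 3 months, the difference was -1.80 (adjusted p = 0.239), and with the slide as a block it was -1.81 (adjusted p = 0.122). With another background correction the fall was 0.93 (adjusted p = 0.124), with close arrays averaged 1.92 (adjusted p = 0.144), and without 3-month sample 1, 2 or 3 in turn it missed the threshold too, with a difference of -1.77 and an adjusted p of 0.0967 at the weakest.

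Fosb, a relative of Fos whose truncated product builds up under repeated stimulation, was well above background on 15 of 24 arrays. Its samples at 3 months were at -6.41, -4.96, -4.94 and -3.22, and those at 2 months at -5.52, -6.09, -2.78, -5.35 and -5.75. The shams ran from -7.20 to -4.23, with a median of -6.03. The highest Fosb level of all came from 2-month sample 3, which also had the highest Fos level, and the second from 3-month sample 4. In the fit without a filter Fosb differed from sham by 0.90 ± 0.63 at 3 months (adjusted p = 0.318) and by 0.52 ± 0.44 over all months (adjusted p = 0.518), a direction opposite to that of Fos that did not pass the test.

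Jun and Junb are the partners of Fos proteins, Jun the stronger activator and Junb often its antagonist. Jun was well above background on all 24 arrays and kept within 1.18 to 1.73 in the shams, 0.72 to 1.42 at 1 month and 1.05 to 1.73 at 2 months. At 3 months Jun was at 0.69, 1.01, 1.07 and 2.15. The first 3 of these (samples 2 and 3 being close arrays) lay below every sham and the last above every sham. The group was thus split around its mean of 1.23, and the difference from sham was -0.18 ± 0.19 (adjusted p = 0.465). Junb at 2 months was at -4.73, -4.74, -3.90, -4.76 and -4.52. Against a sham range of -6.19 to -3.97, sample 3 lay just above the highest sham and the other 4 lay in the upper part of the range. That difference of 0.82 ± 0.40 was not called (adjusted p = 0.171), nor was the one at 3 months, -0.25 ± 0.43 (adjusted p = 0.678). Junb was well above background on 16 of 24 arrays.

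Atf3, a stress-induced repressor of the ATF family, did not follow Fos. Its level at 3 months was -3.77, -3.45, -3.32 and -1.97, against a sham range of -4.54 to -1.77 with a median of -3.85. At 2 months Atf3 kept within -3.38 to -2.73, the narrowest spread of any group. The difference from sham was 0.24 ± 0.51 at 3 months (adjusted p = 0.734) and 0.13 ± 0.36 over all months (adjusted p = 0.813), and neither was called.

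**Figure D2:**
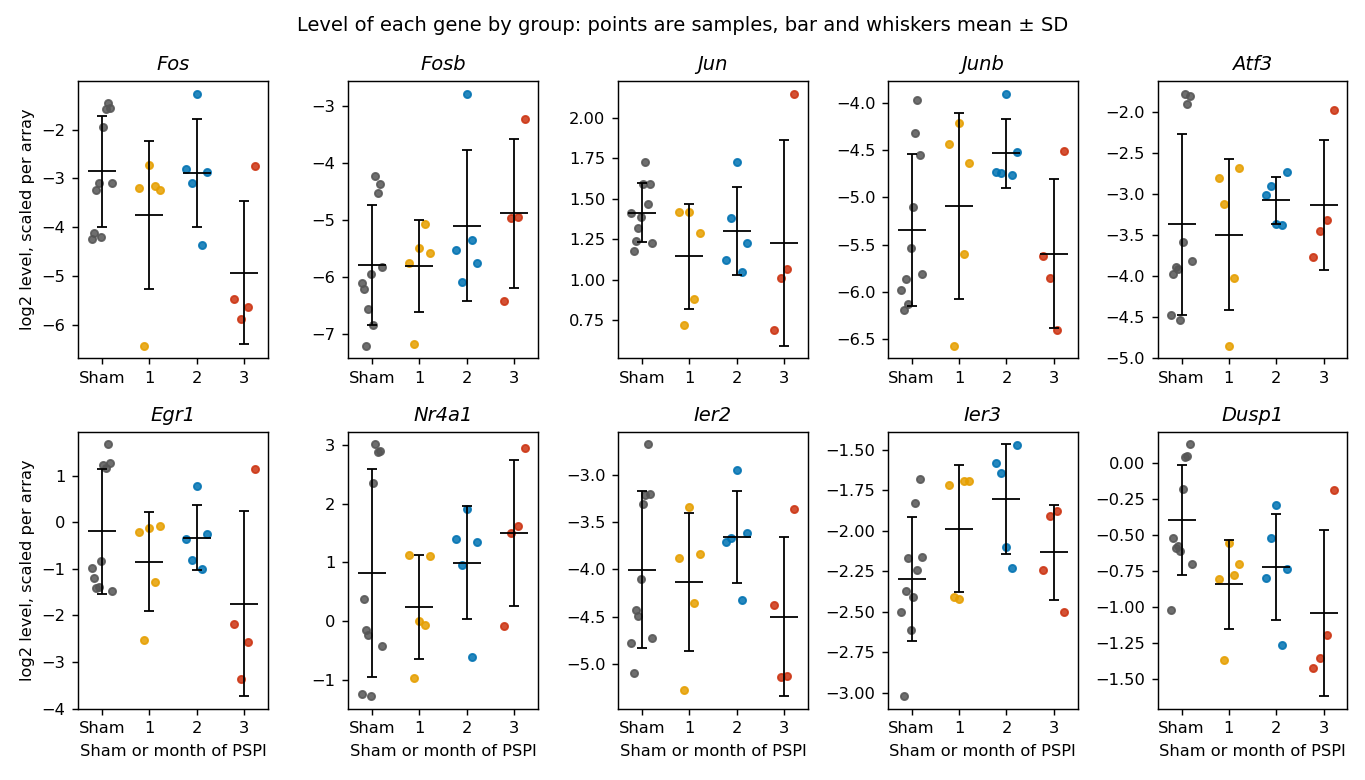
Log2 level of each gene in every sample by group (sham, then 1, 2 and 3 months of PSPI), 1 panel per gene with its own axis; points are samples, the bar is the group mean and whiskers are 1 SD. In the Fos, Jun, Egr1 and Dusp1 panels 3 of the 4 samples at 3 months sit below all shams and the fourth sits high. Samples 2 and 3 at 3 months are close arrays.

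Egr1, a zinc finger factor that links MAP kinase signals to growth genes, was well above background on all 24 arrays. In the shams it ran from -1.47 to 1.68 with a median of -0.90. At 1 month it was at -0.20, -2.52, -0.13, -1.28 and -0.08, at 2 months at -0.35, -0.80, 0.79, -1.01 and -0.25, and at 3 months at -2.19, -3.37, -2.57 and 1.14. As for Fos, 3 samples at 3 months (samples 2 and 3 being close arrays) were below every sham and sample 4 was close to the highest shams. The difference at 3 months was -1.55 ± 0.73 (adjusted p = 0.0943), not called, and its 95% interval ran from -3.06 to -0.04. Its SD at 3 months, 1.99, was larger than that of 99.97% of genes.

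Nr4a1, an orphan nuclear receptor induced by catecholamines and calcium, had the widest spread among the shams. The shams ran from -1.28 to 3.01 with a median of 0.11, a 19.5-fold span that held every PSPI sample. At 1 month Nr4a1 was at 1.13, -0.97, 0.00, -0.06 and 1.11, at 2 months at 1.39, 0.95, 1.90, -0.62 and 1.34, and at 3 months at -0.08, 1.50, 1.61 and 2.95. In 3-month samples 2 and 3, which are close arrays, Nr4a1 stood above its sham median while Fos and Egr1 stood below all shams. The difference at 3 months was 0.68 ± 0.78 (adjusted p = 0.510), with an interval from -0.94 to 2.30, and that over all months was 0.09 ± 0.55 (adjusted p = 0.918).

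Ier2, a small nuclear protein of the early response, was at -4.38, -5.14, -5.12 and -3.36 at 3 months against -5.09 to -2.68 in the shams. It was well above background on 2 of those 4 arrays and differed from sham by -0.49 ± 0.42 (adjusted p = 0.363). Ier3, which is tied to cell survival and NF-kappaB, was steadier. Its samples at 2 months were at -1.58, -1.64, -2.10, -2.23 and -1.47, of which 3 lay above every sham (-3.02 to -1.68). That difference of 0.49 ± 0.19 had an unadjusted p of 0.0169 and an adjusted p of 0.0827, and over all months it was 0.32 ± 0.14 (adjusted p = 0.105).

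Dusp1 encodes a phosphatase that switches off the MAP kinases which induce the other genes, and it was well above background on all 24 arrays (chromosome 17 in mm9). In the shams it ran from -1.02 to 0.13 with a median of -0.55. It was at -0.81, -1.37, -0.56, -0.78 and -0.70 at 1 month, at -0.80, -0.52, -0.29, -1.27 and -0.74 at 2 months and at -1.43, -1.36, -1.20 and -0.19 at 3 months. Of the PSPI values, 3 of 4 at 3 months and 1 each at 1 and 2 months were below all shams, and the others lay within the sham range. The highest were 2-month sample 3 at -0.29 and 3-month sample 4 at -0.19. Samples 2 and 3 at 3 months are close arrays. Over all months Dusp1 fell by 0.48 ± 0.16 (SE, n = 14 and 10; limma, adjusted p = 0.0340), 1.39-fold, and at 3 months by 0.65 ± 0.23 (adjusted p = 0.0288), 1.57-fold. At 1 month the difference was -0.45 ± 0.21 (adjusted p = 0.396) and at 2 months -0.33 ± 0.21 (adjusted p = 0.301). Within slide 3 the differences were -0.39 over all months (adjusted p = 0.643) and -0.52 at 3 months (adjusted p = 0.346). With the slide as a block they were -0.38 (adjusted p = 0.281) and -0.62 (adjusted p = 0.102). With close arrays averaged the differences were as large, -0.52 and -0.63, but neither was called (adjusted p = 0.128 and 0.122). Both calls were also lost without 3-month sample 1, 2 or 3 in turn (adjusted p of at most 0.0599 and 0.114). The one over all months was lost as well without Sham 6, 7, 8 or 9 or 2-month sample 4, where the highest adjusted p was 0.0635.

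**Figure D3:**
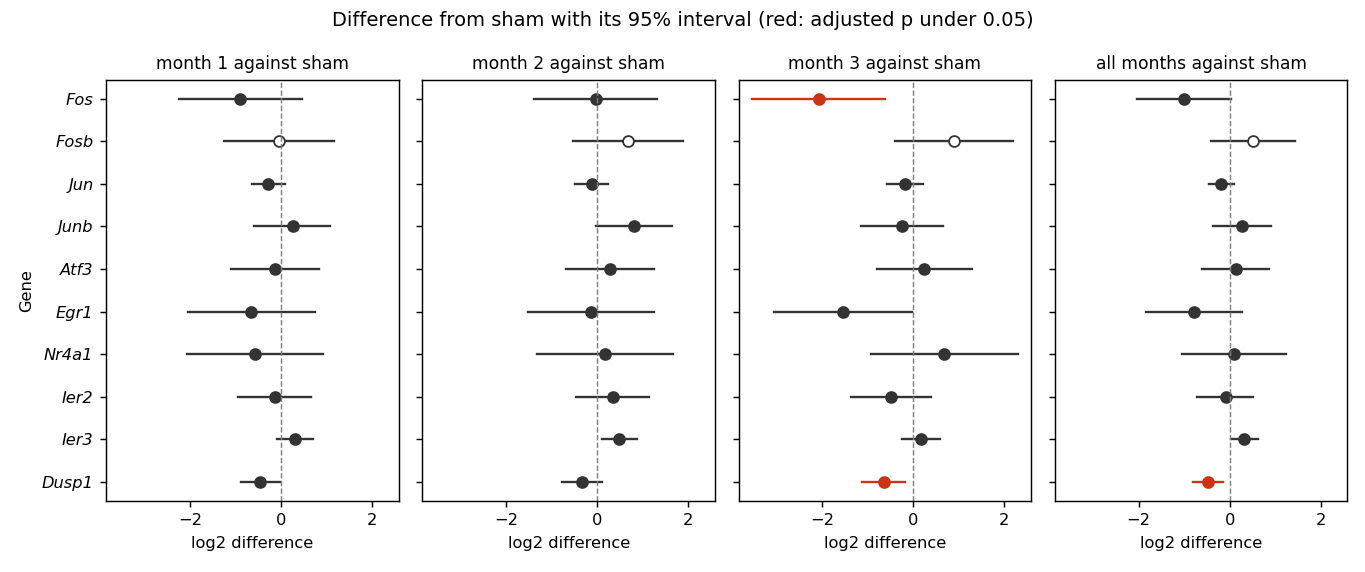
Log2 difference from sham for each gene (point) with its 95% interval (line) at 1, 2 and 3 months and over all months; red marks an adjusted p under 0.05 and the open points of Fosb come from the fit without a filter on dim probes. Fos at 3 months and Dusp1 at 3 months and over all months are red, and the widest intervals belong to Fos, Egr1 and Nr4a1.

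Counted together over the 9 genes tested, 0 were called higher and 1 lower over all months, where 10.8% of the 12429 genes were called higher and 13.6% lower. At 1 month 0 of 9 were called (0% of all genes, limma; 1 of 9 at an unadjusted p under 0.05), and at 2 months 0 of 9 (14.4% of all genes; 1 at an unadjusted p under 0.05). At 3 months 0 were called higher, against 17.2% of all genes, and 2 lower, against 21.7%. The median of the 9 differences was -0.09 over all months and -0.25 at 3 months, and over all genes it was -0.01 and -0.04. Between months 0 of 9 were called. That was against 0.00805% of all genes for 2 against 1 month, 18.7% for 3 against 2 months and 28.5% for 3 against 1 month, and 0, 2 and 0 of the 9 had an unadjusted p under 0.05. The counts of the 9 genes were thus near or below the background of these comparisons.

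Sample 4 at 3 months stood apart from the other 3 samples of its group for most of the genes. It was their highest sample for 9 of the 10 genes, all but Ier3, and the share of all genes with that order is not given. It was also the array with the most probes above background (56.1%). Without it, 4 of 9 genes were called lower at 3 months (Fos, Jun, Egr1 and Dusp1) in place of 2, where 19.9% of all genes were called lower. Jun joined Dusp1 over all months, where 14.2% of all genes were called lower. The sample was singled out by its own levels of these genes, so these counts support nothing. The part of detection in this difference was not tested. Samples 2 and 3 of the group are close arrays.

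Shams 6 to 9 carried the highest sham levels of most genes. For 8 of the 10 genes, all but Fosb and Ier3, each of these 4 samples was above each of the other 6 shams, and 8.64% of all genes tested showed that order. Fos was at -1.95 to -1.46 in the 4 and at -4.24 to -3.10 in the 6, Egr1 at 1.17 to 1.68 and -1.47 to -0.83, and Nr4a1 at 2.35 to 3.01 and -1.28 to 0.37. The same 4 shams had high Myh7, and because they were singled out by measured values this is a description with no test. Leaving them out changed several comparisons. Without them Fos at 3 months was at -1.27 and Dusp1 at -0.38 against sham, with 0 of 9 genes lower. At 3 months 2 genes were higher (Atf3 and Nr4a1), at 2 months 5 (Junb, Atf3, Ier2, Ier3 and Nr4a1) and over all months 4. Of all 12429 genes, 2176 were called higher at 3 months in this setting, 1489 at 2 months and 1682 over all months. At 3 months 2777 of them were called lower. The counts of the 9 genes come from shams picked after their values were seen and support no rise.

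**Figure D4:**
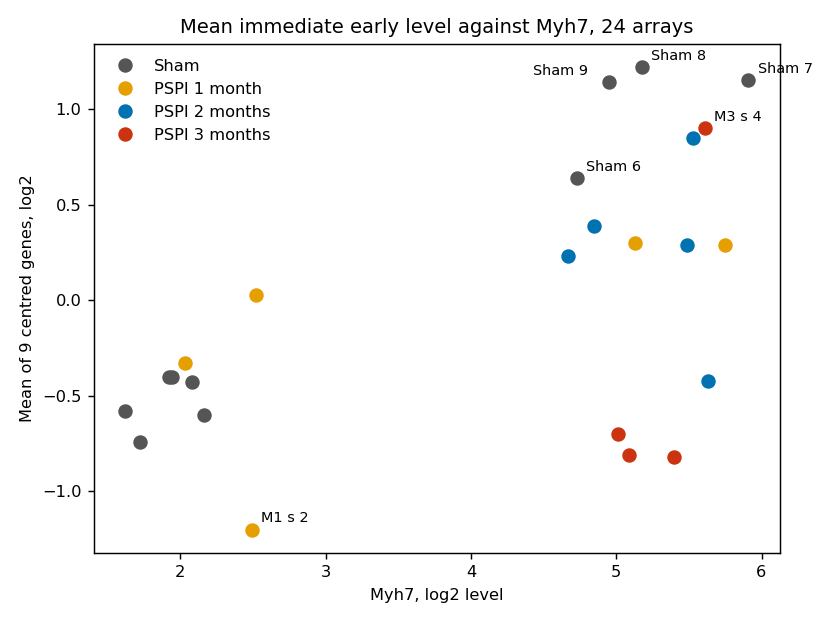
Mean of the 9 tested genes, each centred on its own mean over 24 arrays, against the level of Myh7 (both log2), 1 point per array coloured by group. The shams fall into 6 with low Myh7 and low mean and 4 with high Myh7 and high mean, whereas PSPI arrays with high Myh7 run from -0.82 to 0.90 on the vertical axis.

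In the PSPI samples high Myh7 did not go with one level of the early genes. The mean of the 9 centred genes was 0.90 in 3-month sample 4 and -0.82, -0.81 and -0.70 in samples 1 to 3, at similar Myh7 (5.01 to 5.61). At 2 months it was 0.85 in sample 3 and -0.42 in sample 4, with Myh7 at 5.53 and 5.63. At 1 month, samples 1 and 5, a close pair, had high Myh7 and means of 0.29 and 0.30. Some lists of cell type markers had levels at 3 months that did not overlap the shams, which is a description with no test. The summed level of 7 of 7 endothelial markers was 3.30 to 3.64 at 3 months and 2.71 to 3.09 in the shams, and that of 3 of 5 neutrophil markers was 3.27 to 4.54 against 2.34 to 3.19. The other marker lists tested overlapped the shams at 3 months. Ventricular cardiomyocyte markers, for example, were at 8.21 to 9.60 against 7.80 to 9.12, and fibroblast markers at 5.58 to 6.01 against 4.99 to 5.81. The share of all genes that cleared the shams in this way is not given. The part of cell type markers in the falls of Fos and Dusp1 was not tested.

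Close arrays were found by small differences over the most variable genes, and the SDs of Fos, Egr1 and Nr4a1 are among the largest of all genes, so the agreement in these pairs is partly set by that choice and is given as a description. Fos differed between the arrays of a close pair by a median of 0.06 and at most 0.24, against a median of 1.53 in the 63 other pairs of the same group. For Egr1 the median was 0.11 and the largest difference 0.80 (other pairs, median 1.59), and for Nr4a1 0.10 and 0.27 (1.65). Fosb, often at the limit of detection, differed by up to 1.37 within a close pair, Ier2 by up to 0.68 and Junb by up to 0.55.

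The genes moved together from sample to sample. Over the 24 arrays, which share slides and include the close pairs, the 45 pairs of genes had Pearson correlations from -0.08 to 0.92 with a median of 0.59, and 28 pairs were over 0.5. The median was 0.61 over the 17 samples and 0.71 after each group's mean was removed. Among pairs of 1035 genes taken evenly from all tested genes the median was 0.01, and 9.75% were over 0.5. The highest values were those of Junb with Ier2 (0.92), Egr1 with Ier2 (0.91), Fos with Dusp1 (0.90) and Fos with Egr1 (0.89). Atf3 went most closely with Nr4a1 (0.80) and less with Fos (0.39). Ier3 correlated at 0.47 with Atf3, 0.37 with Nr4a1, 0.36 with Junb and 0.22 with Fos, down to 0.08 with Egr1 and -0.08 with Jun.

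**Figure D5:**
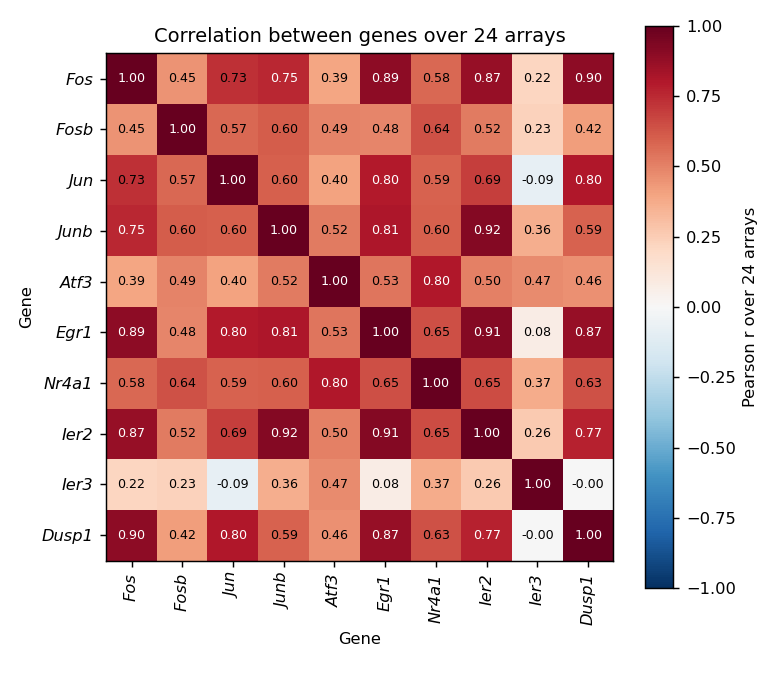
Pearson correlation over the 24 arrays between each pair of the 10 genes, with red for positive values. Fos, Egr1, Ier2 and Dusp1 correlate at 0.77 to 0.91 with each other, and the Ier3 row holds the lowest values, from -0.08 to 0.47.

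Among the other tested genes, those whose level followed the mean of the 9 genes most closely over the 24 arrays were Btg2 (r = 0.98), an antiproliferative gene, Nrarp (0.89), a Notch target, and Nr4a2 (0.88), a relative of Nr4a1. Klf2 and Ccn1 (0.85 each), Otud1 and Egr2 (0.82 each) and Apold1 (0.81) followed. Btg2 was at -2.22 to -1.88 in the 6 shams with low Myh7 and at -0.30 to 0.28 in Shams 6 to 9. None of these 8 genes was called against sham at any month or over all months, and the smallest adjusted p was 0.0956 (limma, Klf2 over all months).

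Other genes of the same signalling system were counted in 6 lists, in the fit used for the 10 genes. In the other AP-1 and CREB or ATF genes, 4 of 8 tested rose at 3 months and 0 fell, where 17.2% of all genes rose and 21.7% fell. Maff, a small Maf protein, rose by 1.69 ± 0.35 (adjusted p = 0.000730), Mafk by 0.98 ± 0.26 (adjusted p = 0.00545), Jdp2, a repressor of AP-1, by 0.71 ± 0.12 (adjusted p = 9.35e-05) and Jund, the Jun protein of resting cells, by 0.54 ± 0.11 (adjusted p = 0.000477). All 4 kept the call with close arrays averaged and with the slide as a block. The median of the 8 was 0.52, against -0.04 for all genes. The same 4 genes were called higher over all months (50%, against 10.8% of all genes), but 0 of 8 with close arrays averaged.

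Of 7 phosphatases related to Dusp1 that were tested, 1 rose (14.3%, against 17.2% of all genes) and 2 fell (28.6%, against 21.7%) at 3 months. Dusp4, a nuclear phosphatase of ERK and JNK, rose by 2.92 ± 0.42 (limma, adjusted p = 2.07e-05), while Dusp7, an ERK phosphatase, fell by 0.87 ± 0.16 and Dusp10, which acts on p38 and JNK, fell by 1.39 ± 0.27 (adjusted p = 0.000226 and 0.000448). All 3 calls held with close arrays averaged and with the slide as a block. Dusp4 was also called over all months (1.38 ± 0.29) and Dusp7 with the opposite sign (-0.37 ± 0.11), both lost with close arrays averaged.

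Of the 34 other primary response genes tested, 8 rose and 0 fell at 3 months, with a median of 0.25. Gadd45b, a stress sensor, rose by 0.86 ± 0.16, Nfkbia, the inhibitor of NF-kappaB, by 0.77 ± 0.15, Ccn2, a matricellular growth factor, by 1.56 ± 0.39, and Sik1, a salt-inducible kinase, by 1.22 ± 0.33. With close arrays averaged 5 of the 8 were called. Over all months 3 rose (Gadd45b, Ccn2 and Rhob) and 0 fell, and 1 of 34 was called with close arrays averaged. The 8 of 34 are 23.5%, against 17.2% of all genes higher at 3 months, and the 3 of 34 are 8.82%, against 10.8% over all months. Of all genes, 21.7% were called lower at 3 months and 13.6% over all months.

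Of the other Egr and Nr4a genes and the Egr corepressors, 1 of 4 tested was called at 3 months (25% lower, against 21.7% of all genes). It was the corepressor Nab2, which fell by 0.35 ± 0.14 (limma, adjusted p = 0.0438) and lost the call with close arrays averaged. Upstream, 3 of 16 serum response factor and MAP kinase genes rose (18.8%, against 17.2% of all genes) and 2 fell (12.5%, against 21.7%) at 3 months. Mapk3, which encodes ERK1, rose by 0.55 ± 0.09 (adjusted p = 8.34e-05), and Mapk14, which encodes p38 alpha, fell by 0.77 ± 0.16 (adjusted p = 0.000980). Both calls held with close arrays averaged.

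Inducible heat shock genes belong to another fast stress response. Hspa1a and Hspa1b, also on this list, were not among the genes tested. At 3 months 5 of 8 tested fell and 0 rose, where 21.7% of all genes fell and 17.2% rose, with a median of -0.56. Over all months 4 of 8 fell, against 13.6% of all genes. Dnajb1, a co-chaperone, fell by 1.24 ± 0.20 at 3 months (adjusted p = 6.27e-05), Dnaja1 by 0.90 ± 0.16, Hspe1 by 0.71 ± 0.08 and Hspd1, its mitochondrial partner, by 0.65 ± 0.13. With close arrays averaged, 4 of 8 fell at 3 months and 3 over all months. At 2 months 11 of the 77 tested genes of the 6 lists were called (14.3%, against 14.4% of all genes), among them Maff (1.12 ± 0.32) and Dusp4 (1.48 ± 0.39), and 0 with close arrays averaged. At 1 month 0 genes of the lists were called in either direction, and 0% of all genes were.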

How the data were processed

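Total RNA of 24 right ventricle samples was labelled with Cy3 and hybridised to one-colour Agilent arrays, per the labels' protocols. The authors deposited the scanner output of Agilent Feature Extraction 10.7.3.1, as the file headers and the submitters' processing notes give it. Its processed signal is an intensity, with background removed by that software. Their deposited value table held another output of that software, its net signal, in every spot of every array. This is also an intensity but not the processed signal, and it served as an alternative.

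From the deposited intensities, log2 of the processed signal minus each array's 75th percentile was taken, the percentile being that of the 16946 probes detected on all 24 arrays. Control spots and outlier flags were left out, and spots of a probe averaged. Probes well above background on all arrays of at least 1 group were kept (21040 of 55681). Of a gene's kept probes the brightest stood for it, giving 12429 genes. limma 3.58.1 in R 4.3.3 (lmFit, eBayes) fitted the 4 groups together, and p-values were adjusted over all genes by Benjamini-Hochberg, with a threshold of 0.05. The script was tested on simulated data. Errors are SE from that fit, in which the comparison over all months was the mean of the 3 month means minus sham.

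Arrays whose median absolute difference over the 500 most variable genes was under 0.29 were averaged as an alternative. Replicate numbers did not pair the samples. Over 27 pairs with the same number, deviations from the group means correlated at -0.45 to 0.52 with a median of 0.00.

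The text names the 10 genes, up to 4 called genes with the smallest p per list and comparison, Myh7, Nppa and Myl7, and the 8 genes most like the mean of the tested ones. The genes, lists and tests were chosen with earlier results of these data known. Scan dates added nothing to the slides. Exons and untranslated regions of probes were not assigned.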

Additional observations from a re-analysis of the deposited data

Results flagged for a closer look

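Within groups of 4 to 10 samples, the gap from the highest or lowest sample to its neighbour was compared with the group's whole range for the 10 genes in 4 groups, 40 in all. A gap above the 95% critical value of Dixon's test was found in 4 of them. Chance gives about 1 in 20 for independent samples and genes. Here the genes are correlated and each PSPI group holds a pair of close arrays, so the 4 cannot be weighed against that rate. Fos was also well above background on only 4 of 5 arrays at 1 month and 2 of 4 at 3 months. Fos in PSPI month 1 sample 2 was at -6.43, with the others of its group at -3.24 to -2.72. Fos in PSPI month 3 sample 4 was at -2.74, with the others at -5.88 to -5.48. In PSPI month 2 sample 3, Fosb was at -2.78 (others -6.09 to -5.35) and Junb at -3.90 (others -4.76 to -4.52).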

How the results depend on the processing

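Values of single genes were compared under other settings and with 1 array left out. Their direction and their side of the threshold were kept in 536 of 636 and in 814 of 864. Most of these values were not called in the main setting. The only values called there were Fos at 3 months and Dusp1 at 3 months and over all months. These called values account for all of the 24 and 14 lost calls, and 21 and 5 other values gained a call. None of the called values changed sign. The count of genes lower over all months (1, Dusp1) was 0 with normexp background correction, with the deposited table, with no filter on dim probes, with the slide as a fixed block, on slide 3 alone, with the replicate number as a block, with close arrays averaged, without Shams 6 to 9 (chosen after seeing the data) and without month 3. It ran from 0 to 2 with 1 array left out, and was 0 without Sham 6, 7, 8 or 9, month 2 sample 4 or month 3 sample 1, 2 or 3. The count lower at 3 months (2) was 0 with normexp, the deposited table, the slide as a fixed block, slide 3 alone, the replicate block, close arrays averaged and without Shams 6 to 9. It was 1 (Dusp1) over probes detected on every array, where Fos was not tested, and 1 (Fos) with only the compared groups fitted, and it ran from 0 to 4 with 1 array left out. The count higher over all months (0) was 1 with array weights (Ier3), 2 with the replicate block (Atf3, Ier3), 4 without Shams 6 to 9, and 0 to 1 with 1 array left out. The count higher at 2 months (0) was 2 with array weights and 2 with the replicate block (Junb, Ier3), 5 without Shams 6 to 9 and 0 to 1 with 1 array left out. The count higher at 3 months (0) was 1 with the replicate block (Nr4a1) and 2 without Shams 6 to 9. The count lower at 3 against 2 months (0) was 1 (Fos) when the percentile came from all probes, 2 (Fos, Junb) after quantile normalization, 4 with array weights, and 0 to 2 with 1 array left out. Under the replicate block Fos at 3 months was at -1.15 (adjusted p = 0.219) and Dusp1 over all months at -0.20 (adjusted p = 0.458), though the numbers did not pair the samples. Fos with normexp was at -0.93, less than at -2.08 in the main setting. With the percentile over all probes the median of all genes at 3 months moved from -0.04 to -0.20, and calls from 2139 higher and 2700 lower to 1319 and 4552. Over all months they moved from 1345 and 1688 to 863 and 2628. The cause of these changes was not tested. Dim signal limits Fos, Fosb, Junb and Ier2, which were not well above background on some arrays.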
